A study of Mus musculus with 15 samples.

Results

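The genes described here are 10 genes of fatty acid synthesis in mouse liver: Srebf1, Fasn, Acaca, Acacb, Acly, Me1, Scd1, Elovl3, Elovl5 and Elovl6. They were chosen by name, as members of the pathway, but with earlier results of these data known. The array named 18 probe sets for them, of 22690 probe sets in all, and the comparisons below used 1 probe set per gene for 12393 genes. All 10 genes were measured. Fatty acid synthesis in the liver turns citrate into acetyl-CoA (ATP citrate lyase, Acly), acetyl-CoA into malonyl-CoA (acetyl-CoA carboxylases, Acaca and Acacb), and these units into palmitate (fatty acid synthase, Fasn), with NADPH that malic enzyme (Me1) helps to supply. Elongases (Elovl3, Elovl5, Elovl6) and stearoyl-CoA desaturase (Scd1) then lengthen and desaturate the products. The transcription factor SREBP1, made from Srebf1, is a main activator of these genes in hepatocytes, and it is known to respond to insulin and to the nuclear receptor LXR.

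The study put liver RNA of 15 mice on Affymetrix arrays, 1 array per mouse; every mouse was given as an adult male of 3 months, with 3 biological replicates in each of 5 groups. Human alpha1-antitrypsin was expressed only in hepatocytes, from a transgene that doxycycline in the drinking water (40 µg/mL) switches off. Z4 mice expressed the mutant Z form, which accumulates in the endoplasmic reticulum, and had no doxycycline. Z1 mice were of the same line and were given doxycycline from conception, so that the transgene stayed off. M4 mice expressed the wild type M form without doxycycline, and M1 mice carried the M transgene and were given doxycycline. WT mice were nontransgenic littermates without doxycycline. In Z4 against Z1 and in M4 against M1, transgene expression and the absence of doxycycline cannot be told apart. The level of the human transgene itself was not analysed here. Values are array signals on a linear scale, and changes are differences of log2(signal + 16), so that a change of a dim gene is understated. A change is called where limma's moderated test gave an adjusted p under 0.05 (Benjamini-Hochberg over the 12393 genes, two-sided), and SE is the standard error of the change. Every adjusted p below is from this limma fit of all 15 arrays, unless another is named. In whole liver RNA, fewer cells of a type and less RNA per cell cannot be told apart.

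Some technical facts touch the comparisons. M4 arrays 1 and 2 went against the labelled sex: Xist, the RNA of the inactive X chromosome, read 1149.2 and 226.0 on them and 32.6 on M4 array 3, with at most 74.3 in the other groups. The Y-linked Eif2s3y read 0.4, 1.3 and 42.1 on the 3 M4 arrays and at least 105.3 on every other array. The summed signal of 4 genes typical of male liver was 968.3, 302.5 and 10090 on M4 arrays 1, 2 and 3, against 6568 to 12430 elsewhere, and values without arrays 1 and 2 are given where a call named here that rests on M4 ended or turned without them. The median signal of the poly-A control transcripts was 2.0 to 5.2 on the Z4 and M4 arrays and 33.8 to 57.9 on the Z1, M1 and WT arrays, and the 18S ribosomal RNA control moved the other way, at 1830 to 2680 against 75 to 568. The median of all gene changes was 0.25 in Z4 minus Z1 and 0.29 in M4 minus M1, against -0.04 for the difference between these changes, and changes are read beside it. Both control signals separate the Z4 and M4 arrays from the Z1, M1 and WT arrays without overlap. What they reflect therefore cannot be told apart from transgene expression in these comparisons. The part of these control signals in the results was not tested. The summed signal of 6 hepatocyte markers was 59290 to 73900 in WT and 36500 to 48350 on the 12 arrays of the transgenic lines, so that every comparison with WT also crosses this difference. Adipocytes also express these lipogenic genes. The defining adipocyte transcripts Adipoq and Lep read 0.6 to 15.4 and 0.2 to 10.1, and the sum of 5 adipocyte markers was 94.5 to 151.5 in Z4, 142.9 to 168.1 in Z1, 81.4 to 112.1 in M4, 70.8 to 124.4 in M1 and 66.3 to 139.8 in WT. The sum of 7 Kupffer cell markers was 2314 to 2746 in M4 and 1348 to 1405 in M1, but overlapped in Z4 (1142 to 1440) and Z1 (1076 to 1645). That of 5 stellate cell markers was 538.5 to 619.2 in Z4 and 364.5 to 378.3 in Z1, but overlapped in M4 (393.4 to 679.4) and M1 (425.5 to 445.5). Most of the stellate sum was Reln (means 451.6 in Z4 and 294.7 in Z1). Des and Col1a1 also had higher means in Z4, while Pdgfrb (27.9 against 41.3) and Lrat (11.4 against 12.3) had lower ones. The sum of 5 endothelial markers was higher with the transgene on in both lines without overlap, at 783.8 to 867.1 in Z4 and 539.0 to 709.3 in Z1, and at 847.9 to 1285 in M4 and 602.0 to 692.0 in M1. Of its members, Stab2 and Kdr were higher without overlap in both lines, and Clec4g, the largest, overlapped in both. Lyve1 had lower means with the transgene on (22.6 against 34.5 in the Z line, 22.3 against 38.4 in the M line). The exocrine pancreas transcripts Cpa1 and Prss2 read 174.5 and 285.9 on Z1 array 1, and at most 28.1 and 66.1 on every other array. A further pancreas marker, Cela1, read 621.7 there, within its range on the other arrays (358.8 to 1357.8). Z1 array 1 is among the arrays named below whose removal ended a call. The part of these cells in the results was not tested.

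The promoters of 3 of these genes are shown because they differ in their expression: Elovl5 fell in both lines with the transgene on, Acly fell in the Z line on some of its probe sets, and Fasn, the central enzyme, was not called in any comparison. Each sequence runs from 250 bases before the gene's start to 50 bases after it, 5' to 3' on the strand of the gene, from RefSeq on GRCm38.p6. Capitals mark every match to CACGTG (the E-box), CCAAT (the CCAAT box), GGGCGG (the GC box) or TCACNCCAC (a sterol response element), on either strand.
Fasn, chr11:120824498-120824797, minus strand: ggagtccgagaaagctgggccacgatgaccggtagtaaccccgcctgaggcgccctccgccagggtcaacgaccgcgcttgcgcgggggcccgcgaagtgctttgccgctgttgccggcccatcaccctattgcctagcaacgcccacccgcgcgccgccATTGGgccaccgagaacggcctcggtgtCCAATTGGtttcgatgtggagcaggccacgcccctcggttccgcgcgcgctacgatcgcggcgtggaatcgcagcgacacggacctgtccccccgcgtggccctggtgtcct
Acly, chr11:100527951-100528250, minus strand: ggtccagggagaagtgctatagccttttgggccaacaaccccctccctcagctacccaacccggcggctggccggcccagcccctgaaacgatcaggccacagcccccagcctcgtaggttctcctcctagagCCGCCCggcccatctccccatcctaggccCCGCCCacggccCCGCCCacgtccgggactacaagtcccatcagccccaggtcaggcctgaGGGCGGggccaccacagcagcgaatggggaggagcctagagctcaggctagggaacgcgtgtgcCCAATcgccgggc
Elovl5, chr9:77917115-77917414, plus strand: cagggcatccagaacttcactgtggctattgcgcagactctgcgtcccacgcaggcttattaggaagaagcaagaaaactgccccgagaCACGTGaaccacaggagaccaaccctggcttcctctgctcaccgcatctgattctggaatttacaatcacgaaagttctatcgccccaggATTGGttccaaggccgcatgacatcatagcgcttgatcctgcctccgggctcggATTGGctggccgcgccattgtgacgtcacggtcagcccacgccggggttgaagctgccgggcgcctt
The Fasn promoter held CCAAT boxes that begin 90, 62 and 59 bases before the start, and the last pair overlap each other on opposite strands. The Acly promoter held GC boxes 117, 88, 76 and 27 bases before the start and a CCAAT box that begins at base 38 counted from the start. The Elovl5 promoter held an E-box 161 bases before the start, which reads the same on both strands, and CCAAT boxes 71 and 17 bases before it. RefSeq promoters were matched for 8 of the 10 genes, with 11 promoters in all. Over those 8 genes, 6 had a CCAAT box, 3 a GC box, 1 (Elovl5) an E-box and 0 the sterol response element. Counted by promoter, these were 7, 4, 1 and 0 of 11. Among 32851 mouse promoters of the same 300 bases, 37.4% held the CCAAT box, 35.7% the GC box, 7.15% the E-box and 1.24% the sterol response element. A match is a description of these letters in this window and not a binding site.

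With the Z transgene on, Srebf1 and Acaca rose while Scd1, Elovl3 and Elovl5 fell: 5 of the 10 genes were called in Z4 minus Z1, 2 higher and 3 lower. Over all genes 31.6% were called higher and 7.46% lower in this comparison. With the M transgene on, 4 of the 10 were called in M4 minus M1, with Acaca higher and Scd1, Elovl3 and Elovl5 lower, against 37.9% higher and 12.4% lower over all genes. The median change of the 10 genes was -0.13 in the Z line and -0.37 in the M line, where the median gene changed by 0.25 and 0.29. In Z4 minus Z1, all 3 arrays of one group lay above all 3 of the other for 3 genes in the direction of higher and 3 in that of lower, and in M4 minus M1 for 2 and 3 genes. Over all genes, 42.1% lay wholly higher and 12.7% wholly lower in Z4 than in Z1, and 44.1% and 13.8% in M4 than in M1. No member was called in the test of the difference between the 2 lines' changes, (Z4 minus Z1) minus (M4 minus M1), where limma called 0.307% of all genes in each direction and 2 members had an unadjusted p under 0.05 (Srebf1 and Elovl6, both higher). These comparisons share no arrays with each other, but each shares its arrays with the comparisons to WT below.

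**Figure D1:**
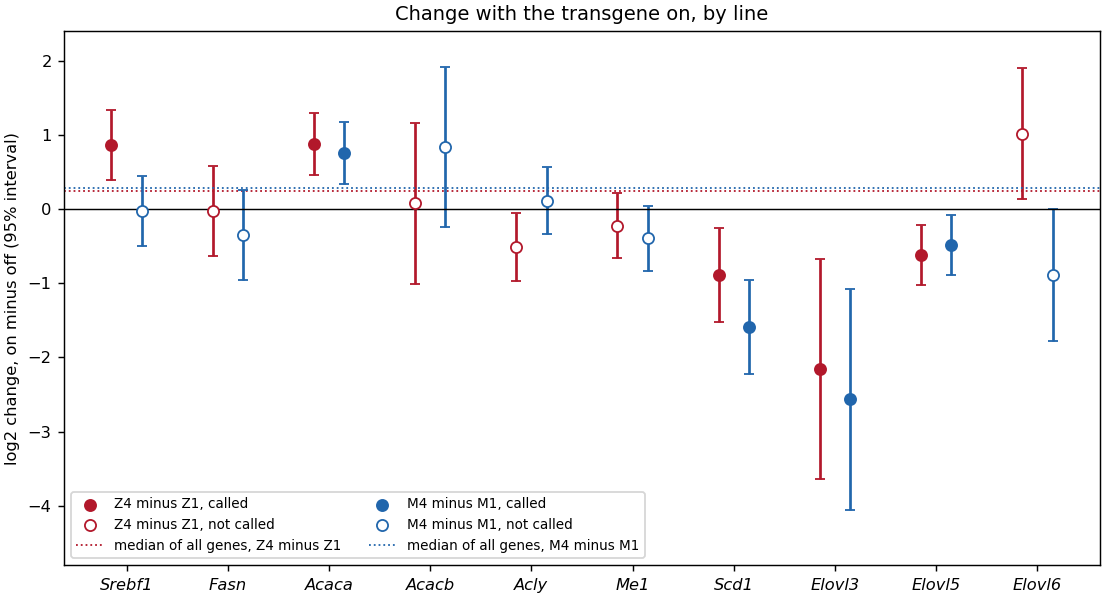
log2 change with the transgene on for the 10 genes, Z4 minus Z1 in red and M4 minus M1 in blue, with 95% confidence intervals from the limma fit of 15 arrays (3 per group); filled points are called at an adjusted p under 0.05 and dotted lines are the medians of all 12393 genes (0.25 and 0.29). Scd1, Elovl3 and Elovl5 lie below 0 in both lines and Acaca above it, while Srebf1 is filled in the Z line alone.

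Srebf1, the regulator, was the gene at the head of the pathway that rose in the Z line. It read 1854.8, 1347.0 and 1408.6 on the Z4 arrays and 759.2, 747.6 and 992.1 on the Z1 arrays. It read 1353.7, 1204.4 and 1313.7 in M4, 1312.6, 1302.6 and 1325.0 in M1, and 2042.2, 1048.7 and 1055.3 in WT. Every Z4 array lay above every Z1 array, the Z1 group was the lowest of the 5 without overlap, and the other groups overlapped or nearly met. The change was 0.87 in Z4 minus Z1 (SE 0.22, adjusted p = 0.00710, 1.83-fold) and -0.03 in M4 minus M1 (95% interval -0.50 to 0.45, adjusted p = 0.930). The difference between these changes did not pass the test (0.90, adjusted p = 0.202). In Z4 minus WT the change was 0.21 (adjusted p = 0.593), and the called difference to WT was that of the Z1 mice, with the transgene off, which read lower (-0.66, SE 0.22, adjusted p = 0.0442). That last call rested on WT array 1 at 2042.2: without it the change was -0.34 (adjusted p = 0.160), and it was also lost without Z1 array 1 or 2 (adjusted p = 0.128 and 0.132).

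**Figure D2:**
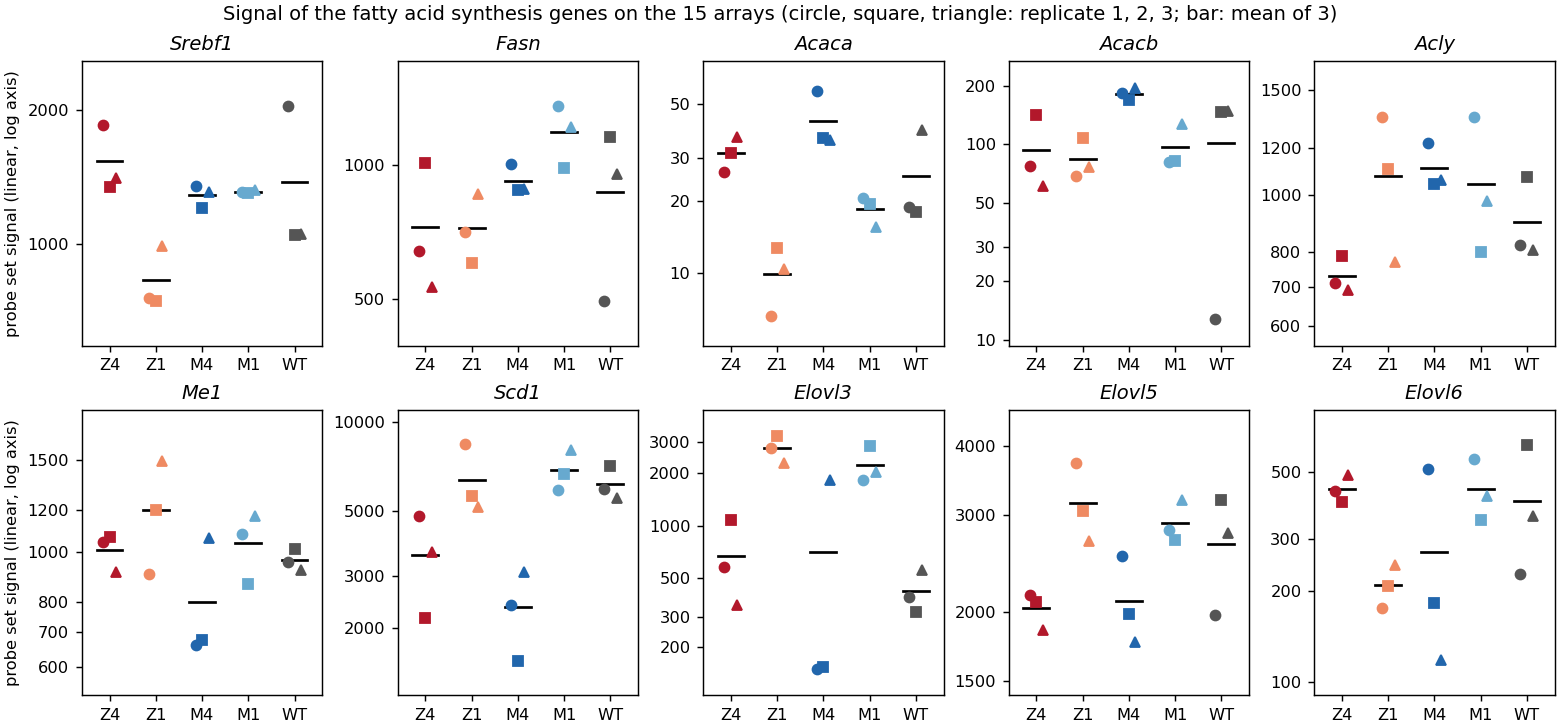
Signal of the 10 genes on each of the 15 arrays, by group, on linear values drawn on a log axis with a scale of its own in each panel; the circle, square and triangle are replicates 1, 2 and 3, and bars are means of 3. Srebf1 is lowest in Z1, Scd1 and Elovl5 are lower in Z4 and M4 than in Z1 and M1, and for Elovl3 M4 array 3 (1820.7) stands apart from M4 arrays 1 and 2 (149.5 and 154.6).

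Acetyl-CoA carboxylase 1, the cytosolic enzyme that makes malonyl-CoA for synthesis (Acaca), rose in both lines but at dim signals. It read 26.3, 31.4 and 36.7 in Z4 and 6.7, 12.7 and 10.4 in Z1. It read 56.6, 36.5 and 35.5 in M4, 20.6, 19.3 and 15.6 in M1, and 18.8, 18.0 and 39.3 in WT. The arrays with the transgene on lay above those with it off in both lines without overlap, and WT spanned from the M1 to the M4 values. The changes were 0.87 in Z4 minus Z1 (SE 0.19, adjusted p = 0.00306) and 0.76 in M4 minus M1 (SE 0.19, adjusted p = 0.00538). Both calls ended when arrays were quantile normalized, which took the changes to 0.30 (adjusted p = 0.244) and 0.08 (adjusted p = 0.754), and the M line's call ended without M4 arrays 1 and 2 (0.58, adjusted p = 0.0982). Z1 also lay below WT (-0.64, SE 0.19, adjusted p = 0.0280), a call that ended without WT array 3 (-0.41, adjusted p = 0.117), without Z1 array 1 (-0.55, adjusted p = 0.104) or 3 (-0.66, adjusted p = 0.0585) and under quantile normalization (-0.19, adjusted p = 0.520). In M4 minus WT the change was 0.53 (adjusted p = 0.0632), or 0.76 (adjusted p = 0.0106) without WT array 3.

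Acetyl-CoA carboxylase 2, the mitochondrial form whose malonyl-CoA restrains fatty acid oxidation (Acacb), was not called in any comparison. It read 77.4, 141.4 and 61.6 in Z4 and 68.8, 107.5 and 76.8 in Z1. It read 183.6, 169.1 and 194.4 in M4, 81.6, 82.6 and 126.7 in M1, and 12.8, 146.1 and 147.8 in WT. All M4 arrays lay above all others, while WT array 1 lay far below the other WT arrays. The change in M4 minus M1 was 0.83 (SE 0.50, adjusted p = 0.183), and in a fit of the M4 and M1 arrays alone, where WT array 1 does not enter the spread, the same change had an adjusted p of 0.00943.

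Fasn, the synthase itself, showed no called change. It read 640.9, 1007.9 and 530.8 in Z4 and 704.5, 602.9 and 860.1 in Z1. It read 1004.4, 879.2 and 880.5 in M4, 1354.3, 984.9 and 1212.5 in M1, and 494.7, 1155.6 and 955.4 in WT. The Z4 and Z1 ranges overlapped, as did the M4 and M1 ranges, and WT spanned from below Z4 to within M1. The change was -0.03 in Z4 minus Z1 (95% interval -0.64 to 0.58, adjusted p = 0.945) and -0.35 in M4 minus M1 (95% interval -0.95 to 0.26, adjusted p = 0.325), so that a change of up to about 0.6 in either direction in the Z line lies within the interval. The 3 other genes whose 5 group means ran closest to those of Fasn were G0s2, an inhibitor of triglyceride lipase (root mean square difference of the centred means 0.060 on the log2 scale), Copg1 (0.082) and Crip1 (0.098), among 6480 genes with a mean signal of 50 or more.

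Acly, which provides cytosolic acetyl-CoA, read lower in the Z line on 2 of its 5 probe sets. The brightest one (1451666_at) read 709.6, 788.5 and 690.6 in Z4 and 1353.6, 1103.9 and 770.7 in Z1. It read 1224.4, 1043.8 and 1059.4 in M4, 1351.7, 801.3 and 976.7 in M1, and 823.0, 1073.2 and 806.2 in WT. Z4 lay below M4 and WT without overlap, and just overlapped Z1. Its change in Z4 minus Z1 was -0.52 (SE 0.21, adjusted p = 0.0699), or -0.73 (adjusted p = 0.0162) without Z1 array 3.
Probe set 1425326_at read 163.7, 190.2 and 105.9 in Z4 against 363.4, 305.6 and 242.2 in Z1 and 341.0, 296.5 and 312.6 in M4. Here Z4 was below both other groups without overlap. In the fit of all 22626 probe sets, adjusted over them, it changed by -0.93 in Z4 minus Z1 (adjusted p = 0.00508) and by -1.01 in Z4 minus M4 (adjusted p = 0.0265). Probe set 1439459_x_at read 502.3, 680.4 and 556.1 in Z4 against 1345.2, 1010.6 and 837.6 in Z1, a change of -0.84 (adjusted p = 0.00208 over all probe sets). In the M line these 2 probe sets changed by 0.22 and -0.18 with neither called. The 2 remaining Acly probe sets read at most 36.1 on any array, close to the added constant, and went in opposite directions in M4 minus M1. There 1438389_x_at changed by -0.73 (adjusted p = 0.00551 over all probe sets) and 1439445_x_at by 0.47 (adjusted p = 0.0431). Against WT, 1438389_x_at was lower in Z4 (adjusted p = 0.00421), M4 (-0.96, adjusted p = 0.00312) and Z1 (-0.59, adjusted p = 0.0379), and 1439445_x_at was lower in M1 (-0.71, adjusted p = 0.0111). The brighter 1439459_x_at went the other way, higher in Z1 than in WT (0.52, adjusted p = 0.0464 over all probe sets). The change of 1425326_at in Z4 minus M4 without M4 arrays 1 and 2 was -0.99 (adjusted p = 0.0870) and that of 1439445_x_at in M4 minus M1 was 0.12 (adjusted p = 0.715). Over all probe sets, 36% were called in either direction in Z4 minus Z1, 46.5% in M4 minus M1 and 4.47% in Z4 minus M4.

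Me1, the cytosolic malic enzyme that makes NADPH, gave different patterns on its 2 probe sets. The brighter one (1430307_a_at) read 1042.9, 1066.8 and 914.4 in Z4, 906.1, 1199.2 and 1495.1 in Z1, and 663.0, 676.1 and 1061.4 in M4. It read 1082.6, 866.1 and 1169.7 in M1 and 954.8, 1010.2 and 921.1 in WT. All groups overlapped their partner group, and none of its changes was called, with -0.22 in Z4 minus Z1 (adjusted p = 0.412) and -0.39 in M4 minus M1 (adjusted p = 0.121). The latter was 0.04 (adjusted p = 0.916) without M4 arrays 1 and 2, and -0.61 (adjusted p = 0.0190) without M4 array 3.
The other Me1 probe set (1416632_at) read 677.5, 498.5 and 660.5 in M1 and 479.0, 365.6 and 308.9 in M4. It read 268.3, 297.3 and 330.0 in Z1, 231.6, 187.5 and 296.8 in Z4, and 149.9, 128.1 and 198.8 in WT. On this probe set M1 lay above all other groups without overlap, and M4, M1 and Z1 all lay above WT. In the fit of all probe sets it changed by -0.66 in M4 minus M1 (adjusted p = 0.0183), 1.19 in M4 minus WT (adjusted p = 0.00167), 0.86 in Z1 minus WT (adjusted p = 0.0106) and 1.85 in M1 minus WT (adjusted p = 1.39e-04). On the brighter probe set the M1 minus WT change was 0.10 (adjusted p = 0.757), so the change of Me1 against WT depends on the probe set. Over all probe sets, 23% were called in M4 minus WT, 21.4% in Z1 minus WT and 23.3% in M1 minus WT.

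Scd1, which makes oleate from stearate, fell in both lines with the transgene on. It read 4795.5, 2165.6 and 3624.6 in Z4 and 8385.2, 5581.8 and 5145.5 in Z1. It read 2398.4, 1547.8 and 3101.2 in M4, 5873.4, 6676.3 and 8035.2 in M1, and 5899.7, 7066.7 and 5499.9 in WT. The 6 arrays with a transgene on were all below the 9 others, and by group mean, linear or log2, the order was M1, Z1, WT, Z4, M4. The first 3 did not differ beyond their spread (Z1 minus M1 -0.13, adjusted p = 0.979; Z1 minus WT 0.02, adjusted p = 0.963), nor did Z4 and M4 (0.57, adjusted p = 0.319). The change was -0.89 in Z4 minus Z1 (SE 0.30, adjusted p = 0.0284, 1.85-fold) and -1.58 in M4 minus M1 (SE 0.30, adjusted p = 6.17e-04, 3.00-fold). Against WT it was -1.43 for M4 (SE 0.30, adjusted p = 0.00430) and -0.87 for Z4 (SE 0.30, adjusted p = 0.0728).
The Z line's Scd1 call was lost without Z1 array 1 (-0.67, adjusted p = 0.126), without Z4 array 2 (-0.58, adjusted p = 0.135) or Z4 array 3 (-0.95, adjusted p = 0.0527), and under quantile normalization (-0.63, adjusted p = 0.127). Without M4 arrays 1 and 2, the M line's change was still called (-1.13, adjusted p = 0.0351), while M4 minus WT was not (-0.98, adjusted p = 0.103). Without Z4 array 1 the change in Z4 minus WT was called (-1.12, adjusted p = 0.0397). The dimmer Scd1 probe set (1415965_at) changed by -0.83 in Z4 minus Z1 (adjusted p = 0.136 over all probe sets) and by -1.40 in M4 minus M1 (adjusted p = 0.0131). Against WT it changed by -0.39 in M4 (adjusted p = 0.549), so the fall below WT was seen on 1 of the 2 probe sets. Its change in M4 minus M1 was -0.91 (adjusted p = 0.263) without M4 arrays 1 and 2.

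Elovl3, an elongase of very long saturated and monounsaturated chains that is known to be sex-dependent in mouse liver, had the widest range of the 10 genes, as the ratio of its highest to its lowest signal. It read 580.4, 1071.1 and 352.4 in Z4 and 2774.6, 3280.9 and 2286.9 in Z1. It read 149.5, 154.6 and 1820.7 in M4, 1825.1, 2857.4 and 2026.1 in M1, and 391.4, 321.1 and 556.9 in WT. Both groups given doxycycline lay above every array of the groups without it, with M4 array 3 just under the lowest M1 array and the other M4 arrays below WT. By group mean of the log2 values, which the test compares, the order was Z1, M1, Z4, WT, M4, and Z1 did not differ from M1 (0.32, adjusted p = 0.974), Z4 from WT (0.53, adjusted p = 0.680) or M4 from WT (-0.20, adjusted p = 0.866) beyond their spread. The change was -2.16 in Z4 minus Z1 (SE 0.69, adjusted p = 0.0243, 4.46-fold) and -2.57 in M4 minus M1 (SE 0.69, adjusted p = 0.00718, 5.93-fold). Compared with WT it was 2.69 higher in Z1 (SE 0.69, adjusted p = 0.0132, 6.46-fold) and 2.37 higher in M1 (SE 0.69, adjusted p = 0.0227, 5.16-fold).
The M line's values of Elovl3 rested on which M4 arrays were used. Without M4 arrays 1 and 2, where M4 array 3 alone remains, the change was -0.27 in M4 minus M1 and 2.10 in M4 minus WT. Without M4 array 3, Elovl3 in M4 was called below WT (-1.35, adjusted p = 0.0224) and below Z4 (Z4 minus M4 1.88, adjusted p = 0.0209). The sums of sex-typical liver genes given above separate the same M4 arrays. The Z line's call was lost on leaving out Z1 array 1 or 2 or Z4 array 1 or 3, with changes of -1.78 to -2.15 (adjusted p = 0.0577 to 0.0989). The M1 minus WT call was lost without M1 array 2 or 3 or WT array 1 or 2 (adjusted p = 0.0538 to 0.0752). Among the 6480 brighter genes, the 3 whose group means ran closest to those of Elovl3 were Clpx, a subunit of a mitochondrial protease (root mean square difference 0.363), Rbbp9, a serine hydrolase (0.374), and Nfil3, a transcriptional repressor (0.394).

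**Figure D3:**
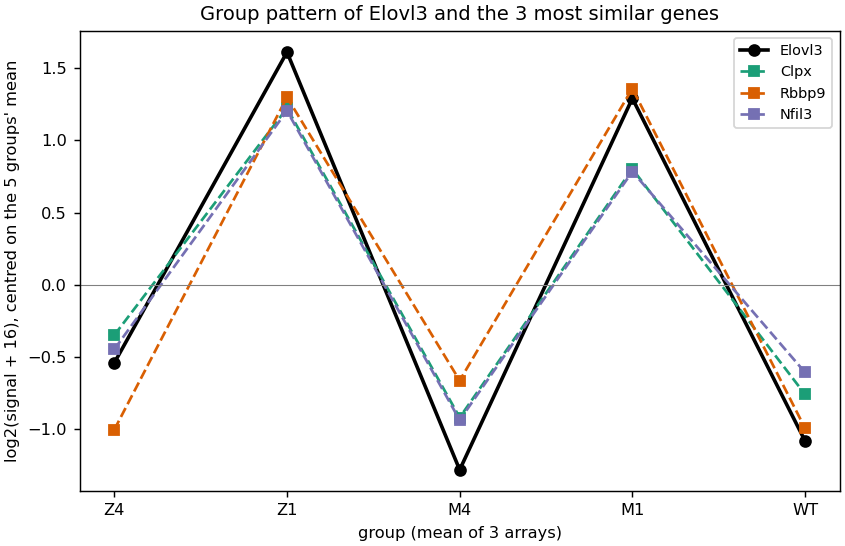
Group means (3 arrays each) of log2(signal + 16) for Elovl3 and the 3 genes with the most similar pattern, Clpx, Rbbp9 and Nfil3, each centred on its mean over the 5 groups. All 4 genes are high in Z1 and M1 and low in Z4, M4 and WT; they were selected for this likeness.

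Elovl5, which elongates polyunsaturated chains, fell in both lines, and its 2 probe sets gave the same direction. The brighter one (1437211_x_at) read 2151.0, 2091.3 and 1860.1 in Z4 and 3736.7, 3059.3 and 2691.4 in Z1. It read 2531.9, 1984.6 and 1763.0 in M4, 2819.4, 2702.5 and 3191.0 in M1, and 1979.8, 3200.3 and 2788.0 in WT. Arrays with the transgene on lay below those with it off in each line without overlap, and WT spanned both ranges. The change was -0.62 in Z4 minus Z1 (SE 0.19, adjusted p = 0.0185, 1.54-fold) and -0.48 in M4 minus M1 (SE 0.19, adjusted p = 0.0467, 1.40-fold). The other probe set (1415840_at) changed by -0.78 (adjusted p = 0.00831 over all probe sets) and -0.83 (adjusted p = 0.00402). On the brighter probe set both calls are close to the threshold. The Z line's was lost without Z1 array 1 (-0.50, adjusted p = 0.0851) or Z4 array 3 (-0.56, adjusted p = 0.0672). The M line's was lost with the replicate number as a block (adjusted p = 0.0639), and on leaving out M4 array 2 or 3 or any 1 M1 array (adjusted p = 0.0651 to 0.161), but not without M4 arrays 1 and 2 (-0.71, adjusted p = 0.0442). Both calls ended under quantile normalization (-0.43, adjusted p = 0.134, and -0.41, adjusted p = 0.129).

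Elovl6, which elongates palmitate to stearate, was not called in any comparison, although its Z4 arrays lay above its Z1 arrays without overlap. It read 432.3, 396.9 and 489.1 in Z4 and 175.9, 208.9 and 244.2 in Z1. It read 510.3, 183.4 and 117.7 in M4, 551.6, 347.0 and 416.9 in M1, and 227.8, 617.3 and 357.5 in WT. The M4 values spread widely, with array 1 inside the M1 range and arrays 2 and 3 below it, and WT also spanned a wide range. The change was 1.02 in Z4 minus Z1 (SE 0.41, adjusted p = 0.0650) and -0.89 in M4 minus M1 (SE 0.41, adjusted p = 0.0876), and the difference between them was 1.91 (adjusted p = 0.151). In a fit of the Z4 and Z1 arrays alone the first had an adjusted p of 0.00240. Without M4 array 1, the change in M4 minus M1 was -1.45 (adjusted p = 0.00267), that in Z4 minus M4 was 1.47 (adjusted p = 0.00816) and that in M4 minus WT was -1.24 (adjusted p = 0.0136). The difference between the lines was then 2.47 (adjusted p = 0.00282). Without M4 arrays 1 and 2 it was 2.76 (adjusted p = 0.00545), with the one remaining M4 array assumed to vary like the other groups. The dimmer Elovl6 probe set (1417403_at) changed by 0.60 in Z4 minus Z1 (adjusted p = 0.193 over all probe sets) and by -0.97 in M4 minus M1 (adjusted p = 0.0323). With M4 arrays 1 and 2 left out it changed by -1.57 in M4 minus M1 (adjusted p = 0.00378), 1.49 in Z4 minus M4 (adjusted p = 0.0131) and -1.28 in M4 minus WT (adjusted p = 0.0206).

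**Figure D4:**
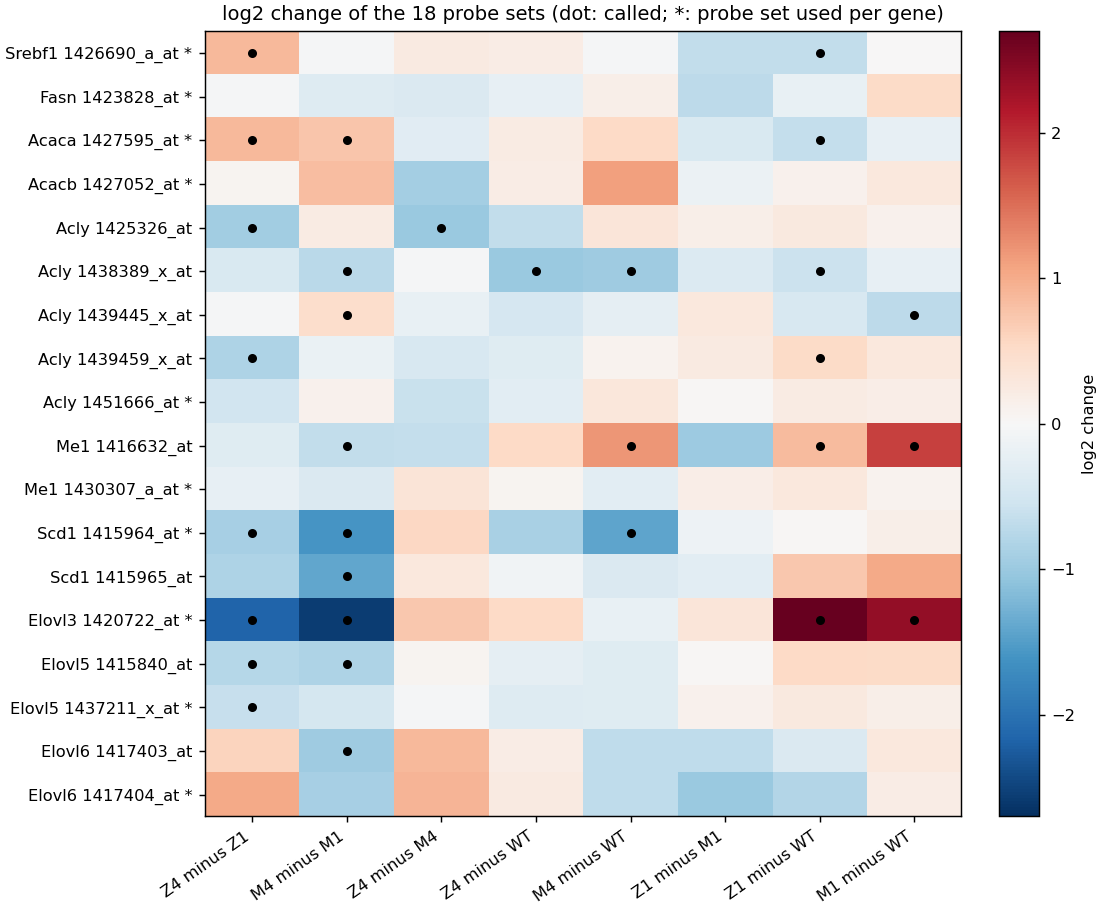
log2 change of each of the 18 probe sets (rows) in 8 comparisons (columns), red for higher and blue for lower in the group named first; dots mark an adjusted p under 0.05 over all 22626 probe sets, and asterisks mark the probe set used for the gene. Probe sets of Elovl5 share their direction in both on minus off comparisons, those of Me1 differ most against WT, and Elovl5 1437211_x_at in M4 minus M1 has no dot here (adjusted p = 0.0501), whereas it was called over 12393 genes (adjusted p = 0.0467).

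The direct comparisons of the groups gave few calls among the 10 genes. In Z4 minus M4, which compares the mutant with the wild type protein, limma called 0 of the 10, with 2 at an unadjusted p under 0.05 (Acly lower, Elovl6 higher), where 3.66% of all genes were called higher and 1.5% lower. In Z4 minus WT it also called 0, with 1 at an unadjusted p under 0.05 (Scd1), against 7.31% higher and 4.63% lower; over all probe sets 12.3% were called in either direction. In M4 minus WT only Scd1 was called, lower, against 14.4% higher and 9.43% lower over all genes. Between the groups with the transgene off, Z1 minus M1, it called 0 of the 10, with 3 lower at an unadjusted p under 0.05 (Srebf1 -0.66, adjusted p = 0.291, Fasn -0.70, adjusted p = 0.439, and Elovl6, adjusted p = 0.459), against 0.0888% higher and 0.0484% lower. The 3 Z1 arrays lay below the 3 M1 arrays without overlap for 4 genes, the same 3 and Acaca (-0.42, adjusted p = 0.531), as for 8.75% of all genes. In Z1 minus WT, Elovl3 was higher and Srebf1 and Acaca lower, where 4.03% of all genes were called higher and 20.1% lower. In M1 minus WT only Elovl3 was called, higher, against 3.92% and 22.2%. Both groups with the transgene off differ from WT in the transgene and in doxycycline, which cannot be told apart here. Z4 minus M4 had 1 called member, Elovl6, when M4 arrays 1 and 2 were left out (1.76, adjusted p = 0.0159).

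The regulators of lipogenic transcription other than Srebf1 moved in both directions. Of 9 measured, 4 rose and 1 fell in Z4 minus Z1 (median change -0.13), and 3 rose and 2 fell in M4 minus M1 (median 0.45), or 2 and 2 without M4 arrays 1 and 2. Over all genes, 31.6% were called higher and 7.46% lower in the Z line and 37.9% and 12.4% in the M line, so the counts of rises lie near the background. Usf2, a factor that binds E-boxes, rose by 1.47 (adjusted p = 1.74e-05) in the Z line and 1.93 (adjusted p = 1.34e-06) in the M line. Ppargc1b, a coactivator of SREBP1, rose by 0.92 (adjusted p = 0.00280) and 0.78 (adjusted p = 0.00549), the latter not called without M4 arrays 1 and 2 (0.69, adjusted p = 0.0907). Srebf2, the regulator of cholesterol synthesis, rose by 0.87 in the Z line (adjusted p = 0.00569), and its change in the M line was 0.48 (adjusted p = 0.0775). Mbtps1, a protease that releases SREBPs, rose by 0.45 in both lines (adjusted p = 0.0175 and 0.0135). The called falls, named here after their values were seen, were of Nr1h3, which encodes LXR alpha, in the Z line (-0.55, adjusted p = 0.0102), and of Mlxipl, which encodes ChREBP (-0.92, adjusted p = 0.0232), and Usf1 (-0.65, adjusted p = 0.0341) in the M line. In the other line these were not called (Nr1h3 -0.20, Mlxipl -0.13, Usf1 -0.20). Against WT, Usf2 was higher in Z4 (0.79, adjusted p = 0.00423) and M4 (0.96, adjusted p = 8.65e-04) and lower in Z1 (-0.68, adjusted p = 0.00525) and M1 (-0.97, adjusted p = 5.50e-04).

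Genes that supply carbon and NADPH to the pathway read mostly lower in Z4 than in Z1. Of 9 measured, 7 fell and 2 rose in Z4 minus Z1, with a median of -0.66 where the median gene changed by 0.25 and 7.46% of all genes were called lower. In M4 minus M1, 2 fell and 0 rose, with a median of -0.31 against 0.29, and 12.4% of all genes were called lower. Against WT, 0 were called higher and 1 lower in Z4 (median -0.15), beside 7.31% and 4.63% of all genes. In Z1, 4 were higher than WT and 1 lower (median 0.29), beside 4.03% and 20.1%. In M1, 3 were higher than WT and 0 lower (median 0.38), beside 3.92% and 22.2%. In M4, 0 were called higher than WT and 0 lower (median 0.08), beside 14.4% and 9.43%. Mdh1, cytosolic malate dehydrogenase, fell by 1.15 (adjusted p = 0.00143) in the Z line and by 0.99 (adjusted p = 0.00261) in the M line. Taldo1, transaldolase of the pentose phosphate pathway, fell by 0.94 (adjusted p = 0.00468) in the Z line, where the M line's change was -0.42 (adjusted p = 0.134). Cs, citrate synthase, fell by 0.64 (adjusted p = 0.00713) in the Z line and by 0.42 (adjusted p = 0.0445) in the M line, the latter not called without M4 arrays 1 and 2 (-0.29, adjusted p = 0.357). Pklr, the liver pyruvate kinase, rose by 1.17 in the Z line (adjusted p = 0.00277), against 0.35 in the M line (adjusted p = 0.268). Acss2, which makes acetyl-CoA from acetate, was lower in Z4 than in M4 (-1.01, adjusted p = 0.0152), also without M4 arrays 1 and 2. Those arrays left out, Taldo1 (-1.13, adjusted p = 0.00152) and Tkt (-0.67, adjusted p = 0.0420) were also called lower in Z4 than in M4. Chosen after their values were seen, Pgd and Tkt, also enzymes of the pentose phosphate pathway, fell by 0.78 (adjusted p = 0.00956) and 0.66 (adjusted p = 0.0167) in the Z line and were not called in the M line (-0.25 and -0.45). Under quantile normalization the Z line had 5 lower and 2 higher. The M line without M4 arrays 1 and 2 had 1 lower and 0 higher, with a median of 0.00. With all arrays, the test of the difference between the lines, (Z4 minus Z1) minus (M4 minus M1), called 0 of the 9 genes higher and 0 lower. The median difference was -0.22, against -0.04 over all genes. With every array kept, the calls made in the Z line alone therefore do not show a difference between the lines. Without M4 arrays 1 and 2, which leaves 1 M4 array, the difference was -1.17 for Taldo1. The median difference of the 9 genes was then -0.36, against -0.03 over all genes. The list as a whole was not tested for such a difference.

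Other desaturases, elongases and enzymes of elongation and fatty acid activation held 16 measured genes, of which 4 fell and 0 rose in Z4 minus Z1 (median 0.02), and 5 rose and 2 fell in M4 minus M1 (median 0.30), beside 31.6% of all genes higher and 7.46% lower in the Z line and 37.9% and 12.4% in the M line. The M line counts lie near this background. Elovl2, which elongates polyunsaturated chains, fell by 1.24 (adjusted p = 2.04e-04) in the Z line and by 0.87 (adjusted p = 0.00158) in the M line. Acsl4, an acyl-CoA synthetase for arachidonate, fell by 1.52 (adjusted p = 0.0106) and by 2.20 (adjusted p = 6.75e-04). Elovl1 fell by 0.58 in the Z line (adjusted p = 0.0168) and was lower in Z4 than in M4 (-0.89, adjusted p = 0.0168), as was Tecr, the last reductase of the elongation cycle (-0.67, adjusted p = 0.0286). Fads2, the delta-6 desaturase, rose by 1.09 in the M line (adjusted p = 0.00198), a call lost without M4 arrays 1 and 2 (0.78, adjusted p = 0.0751), and its change in the Z line was -0.20 (adjusted p = 0.540). Without M4 arrays 1 and 2, the M line had 2 higher and 2 lower.

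Other known targets of SREBP1, LXR or ChREBP read higher in the Z line. Of 11 measured, 7 rose and 0 fell in Z4 minus Z1, with a median of 0.80 against 0.25 over all genes, of which 31.6% were called higher. In M4 minus M1, 4 rose and 1 fell, with a median of 0.44 against 0.29 and 37.9% of all genes called higher, or 3 and 1 without M4 arrays 1 and 2. Mylip, an LXR target that degrades the LDL receptor, rose by 1.40 (adjusted p = 2.07e-04) in the Z line and 1.52 (adjusted p = 6.47e-05) in the M line. Lpcat3, which remodels phospholipids, rose by 1.04 (adjusted p = 4.66e-04) and 1.30 (adjusted p = 5.46e-05). The sterol exporters Abcg8 and Abcg5 rose in both lines, Abcg8 by 0.68 (adjusted p = 0.0139) and 0.89 (adjusted p = 0.00193), and Abcg5 by 0.88 (adjusted p = 0.0216) and 1.38 (adjusted p = 0.00105). The Abcg5 call in the M line was lost without M4 arrays 1 and 2 (0.99, adjusted p = 0.0632). Thrsp, a lipogenic protein, was lower than WT in Z1 (-1.51, adjusted p = 0.00258) and in M1 (-1.13, adjusted p = 0.0109). Its Z4 arrays (4373.2 to 5170.1) and M4 arrays (3797.8 to 5341.3) also lay below WT (6826.8 to 8391.0) without overlap. In Z4 minus WT, 0 genes of this list were called lower. The 1 called fall in the M line, named here after its values were seen, was of Abca1. It read 1012.2, 317.2 and 421.1 in M4 and 1257.8, 1253.2 and 1388.4 in M1, and changed by -1.59 without M4 arrays 1 and 2. In the Z line it read 1066.4, 1109.3 and 1308.0 in Z4 and 1260.3, 1377.4 and 1280.3 in Z1, which overlap. Quantile normalization left 6 higher and 0 lower in the Z line and 4 higher and 1 lower in the M line.

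Genes that control acetyl-CoA carboxylase or malonyl-CoA held 7 measured members, of which 3 rose in Z4 minus Z1 (median 0.35) and 4 rose in M4 minus M1 (median 0.84), with 0 lower in each. Over all genes 31.6% and 37.9% were called higher, so these counts of 7 do not stand far from the background. Prkag1, a subunit of the kinase AMPK that inactivates the carboxylases, rose by 0.70 (adjusted p = 0.00468) and 1.05 (adjusted p = 1.85e-04). Trib3, a pseudokinase that promotes carboxylase degradation, rose by 0.97 in the Z line (adjusted p = 0.00891) and 1.39 in the M line (adjusted p = 5.80e-04). Mlycd, the decarboxylase of malonyl-CoA, rose by 0.84 in the M line (adjusted p = 3.57e-04), against 0.35 in the Z line (adjusted p = 0.0732). Of all 5 lists, the supply genes stood furthest below the median gene in the Z line and the SREBP1, LXR and ChREBP targets furthest above it.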

How the data were processed

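Liver RNA of 15 mice was isolated with TRIZOL and RNeasy, labelled with biotin and hybridised to Affymetrix arrays, per the labels' protocols. The deposited values are array intensities, 1 per probe set and array. RMA is the only tool in the submitters' processing notes, but the values are linear, from 0 to 22995.4, and each array had a 2% trimmed mean of 150.06 to 150.08, so they were treated as scaled linear intensity; their scaling is, in the sources used here, not given. They hold no detection calls, so a dim probe set cannot be called absent, and with 3 arrays a group the number of arrays limits the precision.

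Probe sets were named from the platform annotation: 20380 had 1 gene, 691 had several and 1555 had none, and 64 array controls were left out. The probe set with the highest mean log2 value was used for each gene. limma 3.58.1 in R 4.3.3 (lmFit, contrasts.fit, eBayes) was fitted to log2(intensity + 16) of 12393 genes on all 15 arrays with 1 mean per group (10 residual and 3.89 prior degrees of freedom) and 9 contrasts, and tested on simulated data. Likeness was the root mean square difference of centred group means. Alternatives were a constant of 1 or 64, quantile normalization, dropping the dimmest 40% of genes, all 22626 probe sets, the groups compared alone, the replicate number as a block, and leaving out arrays; those leaving out M4 arrays for the gene lists and for single probe sets, and other scalings of them, were added after seeing the data. The 10 genes and the gene lists were chosen with earlier results of these data known. Named genes of a list are up to 3 called with the smallest adjusted p (otherwise 2 with the smallest p) in a contrast; some are not reported here.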

Additional observations from a re-analysis of the deposited data

How the results depend on the processing

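Each count of called members was recomputed under each alternative. The share of all genes called under each alternative is not given here. A changed count therefore does not show whether the members gained or lost calls more than other genes did. Under quantile normalization, which removes the shift of the median gene between groups, the counts fell from 5 to 2 in Z4 minus Z1 (Srebf1 1.04, adjusted p = 0.00327, and Elovl3 -2.08, adjusted p = 0.0461, were kept), from 4 to 2 in M4 minus M1 (Scd1 and Elovl3 were kept) and from 1 to 0 in M1 minus WT (Elovl3 2.28, adjusted p = 0.0515). With only the groups compared in the fit, Z1 minus WT had 1 called member in place of 3. Without M4 arrays 1 and 2 the counts were 1 in Z4 minus M4, 2 in M4 minus WT and 1 in the difference between the lines, in place of 0, 1 and 0, and Elovl3 in M4 minus WT turned from -0.20, not called, to 2.10. Leaving out 1 array at a time gave 2 to 6 called members in Z4 minus Z1, 3 to 5 in M4 minus M1, 0 to 1 in Z4 minus M4, 0 to 1 in Z4 minus WT, 1 to 2 in M4 minus WT, 0 to 0 in Z1 minus M1, 1 to 3 in Z1 minus WT, 0 to 1 in M1 minus WT and 0 to 1 in the difference between the lines. With the replicate number as a block, 5 members were called in Z4 minus Z1 and 3 in M4 minus M1, where Elovl5 was lost (adjusted p = 0.0639), and no other call changed. Arrays with the same number did not deviate together (correlations of deviations from group means -0.17 to 0.07, median -0.01, over 30 pairs), so the numbers do not pair the mice. Calls near the threshold were also lost with a constant of 1 (Elovl5 in M4 minus M1, adjusted p = 0.0679, and Srebf1 in Z1 minus WT, adjusted p = 0.0651), with a constant of 64 (Acaca in Z1 minus WT, adjusted p = 0.0662) and with only the groups compared (Scd1 in Z4 minus Z1, adjusted p = 0.0539, and Elovl5 in M4 minus M1, adjusted p = 0.0538). Dropping dim genes left 7436 genes without Acaca. Of 1301 recomputed changes of single members, 1240 kept their direction and their side of the threshold (an uncalled change has no direction here), 44 lost a call, 16 gained one and 1 reversed. Where no reason is given, the cause was not tested.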
